A study of Mus musculus with 6 samples.

Results

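Antioxidant and redox defense genes were examined in brown adipose tissue (BAT), the heat-producing fat depot of the mouse. The 34 genes encode the superoxide dismutases, catalase, glutathione peroxidases, peroxiredoxins with sulfiredoxin, the thioredoxin and glutaredoxin systems, the enzymes and transporter of glutathione supply, the NRF2 regulator with KEAP1 and NQO1, and the metallothioneins. They were taken by gene symbol, as a list drawn up with earlier results of these data known. All 34 were found among the 35976 rows of the count table, and all 34 were abundant enough to be tested, among 14542 genes tested. RNA-seq was done on BAT from 3 mice of the WT group and 3 of the sST2-KO group, which the sample labels call ST2-KO. The sST2-KO mice carried a CRISPR/Cas9 deletion of an intron of Il1rl1, in every tissue, that takes out the stop codon of the soluble receptor form sST2 and leaves the coding exons of the membrane form ST2L. Both groups were on the C57BL/6J background and 10 weeks old, had their BAT denervated by surgery, and were kept for 7 days at 30 °C and then for 8 h at 10 °C. No innervated or warm-kept libraries were analysed here.

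Cells hold reactive oxygen species in check with layered enzymes. Superoxide dismutases turn superoxide into hydrogen peroxide, and catalase, glutathione peroxidases and peroxiredoxins turn the peroxide into water, or lipid peroxides into alcohols. The thiols used on the way are reduced again by thioredoxin and its reductase or by glutathione and glutathione reductase, both at the expense of NADPH. Several of these systems exist in separate cytosolic and mitochondrial forms encoded by different genes. BAT is rich in mitochondria, the main site of oxidation in the brown adipocyte, and NRF2 switches on many of the cytosolic genes through antioxidant response elements in DNA.

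The count tables held 8159442 to 12874809 counts per library. In the groups as wholes, 8 brown adipocyte markers summed to between 8164 and 15268 normalized CPM (a count scaled to its library's depth) in WT and between 323 and 1751 in sST2-KO, and 7 of the 8 were lower in sST2-KO at an adjusted p under 0.05. Their sum was lowest in WT replicate 1 and highest in WT replicate 3. The 8 macrophage markers summed to 819 to 1111 in WT and 1380 to 5954 in sST2-KO, with the highest value in sST2-KO replicate 3, and 1 of the 8 passed the test as higher. The 7 neutrophil markers summed to 31.7 to 135 in WT and 147 to 721 in sST2-KO, and 3 of them passed as higher. Of 7 T cell markers, 5 were in the table, with sums of 6.81 to 10.1 in WT and 64.6 to 91.5 in sST2-KO, and 4 of the 5 passed as higher. Libraries stood apart in tissue content within a group as well. WT replicate 2 held 5048 CPM of 8 hepatocyte markers, against 2.49 to 37.1 in the other libraries. The 10 skeletal muscle markers summed to 3653 to 15793 in sST2-KO and to 6.53, 21.8 and 1299 in WT, with the highest value in sST2-KO replicate 3. The 7 erythrocyte markers summed to 485 to 1587 in WT and 11.2 to 108 in sST2-KO. The sums of 6 general adipocyte markers were 16270 to 19913 in WT and 6372 to 11143 in sST2-KO, those of 6 endothelial markers 940 to 1179 and 932 to 1442, and those of 6 fibroblast markers 1920 to 6049 and 1127 to 10006. What these contents contributed to the differences below was not tested. In bulk RNA, fewer cells of a type and less RNA per cell cannot be told apart. The targeted gene, Il1rl1, had 19, 19 and 6 counts in WT and 55, 69 and 142 in sST2-KO. Its log2 fold change was 2.56 (SE 0.57, adjusted p = 0.0239), and that p was 0.0515 to 0.0936 without WT replicate 1, WT replicate 2, WT replicate 3 or sST2-KO replicate 3. These counts add the soluble and membrane transcripts and so do not check the genotype.

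Of the 34 genes, 10 were lower and 2 were higher in sST2-KO at an adjusted p under 0.05, and 22 did not pass. In all, 35.3% of the genes passed, 29.4% as lower and 5.88% as higher. Across all genes tested, 19.6% passed, 9.10% as lower and 10.5% as higher. The genes that fell were Cat, Gpx4, Txn2, Glrx5, Gpx8, Sod1, Txnrd2, Gss, Prdx2 and Srxn1, and the genes that rose were Gsr and Glrx. Of these 12, 10 also differed by more than 2-fold, 8 of them lower and 2 higher, the exceptions being Prdx2 and Srxn1; of all genes tested, 7.10% passed with that fold as lower and 9.04% as higher. The median log2 fold change was -0.41 over the 34 genes and 0.03 over all genes tested. WT and sST2-KO libraries did not overlap for 15 of the 34 genes (44.1%), 11 lower and 4 higher, against 41.5% of all genes tested (19.7% lower and 21.8% higher). Levels are given below as CPM after scaling by the trimmed mean of M values (TMM), in the order of replicates 1 to 3, and all fold changes are of sST2-KO against WT, with p from the quasi-likelihood test of edgeR adjusted by Benjamini-Hochberg over all 14542 genes. The calls leaned on single libraries, for these genes and over all genes alike. With every library, 2847 of the 14542 genes tested passed. That number was 58 of 15085 without WT replicate 3 and 876 of 14846 without WT replicate 2. Without WT replicate 3 none of the 12 kept an adjusted p under 0.05 in edgeR, with values from 0.0618 to 0.165, while 13 of the 34 had an unadjusted p under 0.05. Without WT replicate 2, the library with hepatocyte RNA, Cat, Gpx8 and Gsr kept it. By DESeq2 all 12 passed, together with Prdx3, Txn1, Nqo1 and Slc7a11. Scaled by total counts instead of TMM, a scaling that moved the median over all genes from 0.03 to 0.29, 5 genes passed as higher and 6 as lower. Over the 14542 genes, 3937 passed by DESeq2 and 3072 with total counts. In 9 of the 10 genes that fell, WT replicate 3 was the highest WT library, and in all 10 WT replicate 1 was the lowest WT library. The brown adipocyte marker sums were likewise highest in WT replicate 3 and lowest in WT replicate 1, and their part in these differences was not tested.

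**Figure D1:**
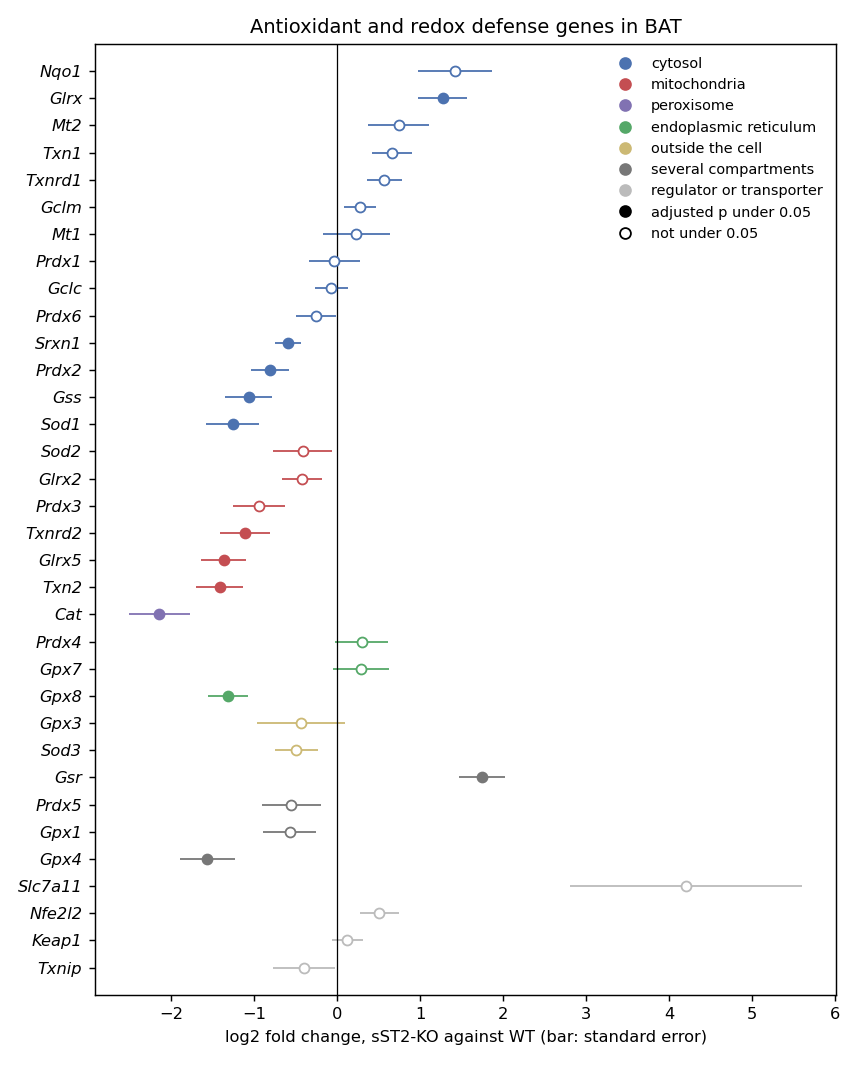
Log2 fold change (x axis) of each of the 34 genes, sST2-KO against WT, with its standard error as a bar and 3 libraries in each group. Colours give where the protein acts, and filled points have an adjusted p under 0.05. All 6 mitochondrial genes lie to the left of 0, and the cytosolic genes spread to both sides.

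The superoxide dismutases are encoded by Sod1 in the cytosol, Sod2 in the mitochondrial matrix and Sod3 outside the cell, and 1 of the 3 fell. Sod1 (GRCm39 chromosome 16, 90017408 to 90027657) was at 395, 551 and 703 CPM in WT and at 281, 247 and 161 in sST2-KO. No WT library reached down to a sST2-KO library, and the mean of 549.6 ± 154 (SD, n = 3) in WT stood against 229.8 ± 62.3 (SD, n = 3). Its log2 fold change was -1.26 (SE 0.31, adjusted p = 0.0330), and that p was between 0.0660 and 0.121 without WT replicate 2, WT replicate 3, sST2-KO replicate 2 or sST2-KO replicate 3. Sod2 gave 492, 594 and 689 CPM in WT and 677, 273 and 381 in sST2-KO. The first sST2-KO library lay within the WT range and the other two lay below it, with a log2 fold change of -0.42 (SE 0.36, adjusted p = 0.444). Sod3 differed by -0.49 on the log2 scale (adjusted p = 0.219).

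Catalase, the heme enzyme of peroxisomes that splits hydrogen peroxide, showed the largest fall of the 34 genes. Cat (GRCm39 chromosome 2, 103284194 to 103316185, minus strand) was measured at 690, 732 and 1257 CPM in WT and at 266, 207 and 134 in sST2-KO. Every sST2-KO library was below every WT library, and WT replicate 3 stood well above the other WT libraries. The fall was 4.41-fold (log2 fold change -2.14, SE 0.37, adjusted p = 0.0153). Of the fits without 1 library, that without WT replicate 3 put it past the threshold, at 0.0618.

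Among the 5 glutathione peroxidases, Gpx4 and Gpx8 fell and 3 did not pass. Gpx4 (GRCm39 chromosome 10, 79883000 to 79892273) encodes the selenoenzyme that reduces lipid hydroperoxides in membranes and guards against ferroptosis, in cytosolic, mitochondrial and nuclear forms. Its levels were 580, 814 and 1241 CPM in WT and 342, 299 and 251 in sST2-KO. The sST2-KO libraries lay close together, the WT libraries were spread over more than a 2-fold range, and the groups did not overlap (log2 fold change -1.56, SE 0.33, adjusted p = 0.0211). That p was between 0.0504 and 0.0761 without WT replicate 2, WT replicate 3, sST2-KO replicate 2 or sST2-KO replicate 3. Gpx8, a peroxidase of the endoplasmic reticulum membrane (GRCm39 chromosome 13, 113178829 to 113183292, minus strand), was at 73.6, 86.1 and 107 CPM in WT and 29.3, 45.6 and 32.7 in sST2-KO. It fell by 1.31 on the log2 scale (SE 0.24, adjusted p = 0.0162, and 0.0679 without WT replicate 3). Gpx7, the other peroxidase of that compartment, gave a log2 fold change of 0.29 (adjusted p = 0.572). Gpx1, the abundant cytosolic and mitochondrial selenoenzyme, gave -0.57 (adjusted p = 0.239). Gpx3, the secreted plasma form, gave -0.43 (adjusted p = 0.599) from 3594, 7576 and 6165 CPM in WT and 5453, 5717 and 1716 in sST2-KO. In Gpx3 the third sST2-KO library was the only one below the WT range.

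Peroxiredoxins remove peroxide through a reactive cysteine, and sulfiredoxin repairs that cysteine after overoxidation. Of the 6 peroxiredoxins, 1 fell, and sulfiredoxin (Srxn1) fell as well. Prdx2, a cytosolic form (GRCm39 chromosome 8, 85693354 to 85702350), was at 191, 251 and 307 CPM in WT and 129, 153 and 147 in sST2-KO. The groups were separate, with a log2 fold change of -0.81 (SE 0.23, adjusted p = 0.0470). Without 1 library Prdx2 passed in 1 of 6 fits, that without WT replicate 1, and reached 0.0837 to 0.165 in the others. Srxn1 (GRCm39 chromosome 2, 151947436 to 151957687) gave 62.5, 69.4 and 70.2 CPM in WT and 40.8, 46.8 and 46.8 in sST2-KO. Both groups were tight, and the fall was 1.5-fold (log2 fold change -0.59, SE 0.16, adjusted p = 0.0398). Srxn1 also passed in the fit without WT replicate 1 alone, with 0.0834 to 0.144 in the other 5. Prdx3, the mitochondrial peroxiredoxin, was at 235, 271 and 318 CPM in WT and at 195, 148 and 87.5 in sST2-KO. Its groups did not overlap, but the log2 fold change of -0.94 (SE 0.31) had an adjusted p of 0.0709, and of 0.0437 without sST2-KO replicate 1. Prdx1, the other cytosolic form, was at 354, 359 and 415 CPM in WT and 266, 295 and 544 in sST2-KO. Its sST2-KO libraries lay on both sides of the WT range (log2 fold change -0.03, adjusted p = 0.954). Prdx4 of the endoplasmic reticulum gave 0.30 (adjusted p = 0.537), Prdx5, found in mitochondria, peroxisomes and cytosol, gave -0.55 (adjusted p = 0.302), and Prdx6, which reduces phospholipid peroxides, gave -0.25 (adjusted p = 0.487).

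**Figure D2:**
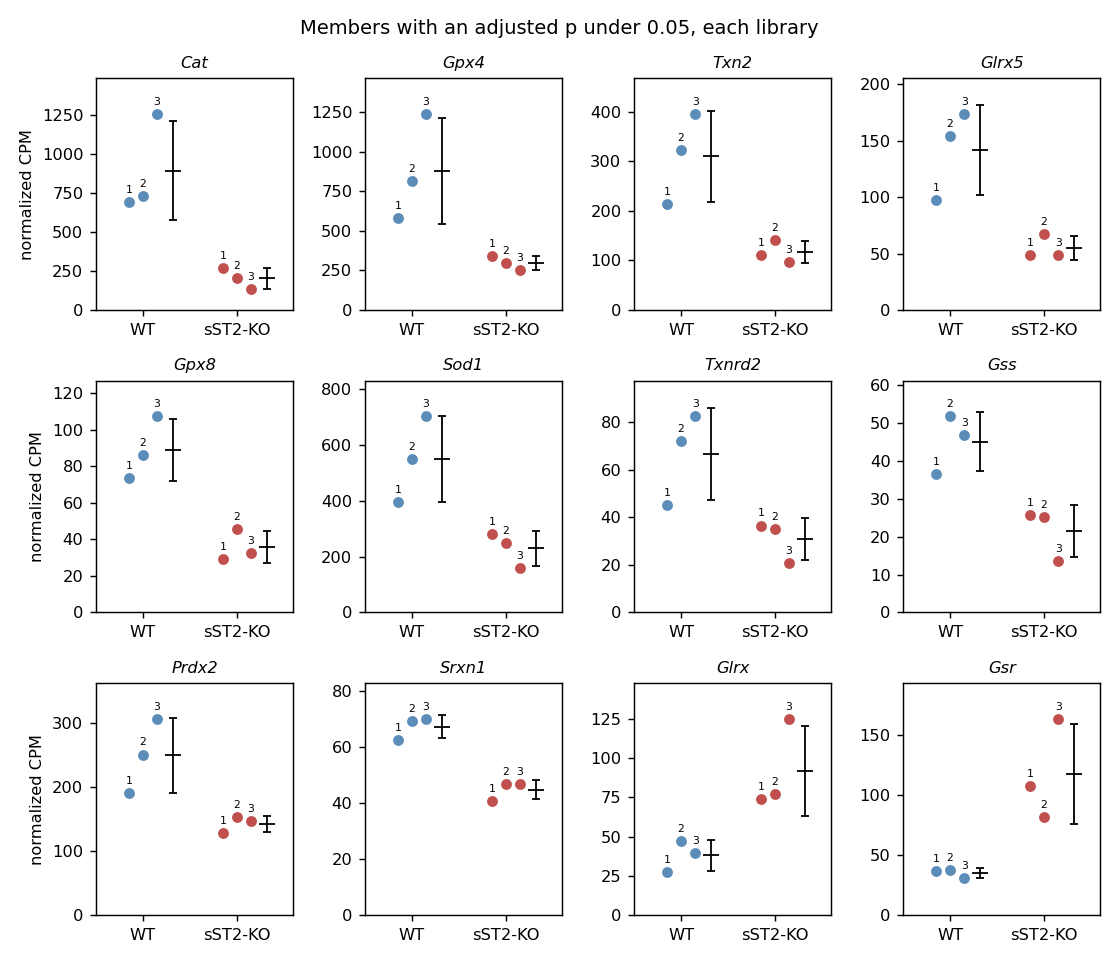
Normalized CPM (y axis, from 0) of the 12 genes with an adjusted p under 0.05 in each WT and sST2-KO library, with replicate numbers above the points and mean ± SD as bars (n = 3). In all 12 panels the WT and sST2-KO points do not overlap, and in 9 of the 10 genes that fell WT replicate 3 is the highest WT point.

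In the thioredoxin system the 2 mitochondrial genes fell, and the cytosolic genes and Txnip did not pass. Txn2, the mitochondrial thioredoxin (GRCm39 chromosome 15, 77799247 to 77818565, minus strand), was at 213, 323 and 396 CPM in WT and at 112, 141 and 97.2 in sST2-KO. Every sST2-KO value was below every WT value, and the fall was 2.66-fold (log2 fold change -1.41, SE 0.28, adjusted p = 0.0193). Its p was 0.0591 and 0.0772 without WT replicate 2 and WT replicate 3. Txnrd2, the mitochondrial reductase that restores it (GRCm39 chromosome 16, 18245134 to 18297823), was at 45.2, 72.3 and 82.6 CPM in WT and 36.6, 35.1 and 20.8 in sST2-KO. It fell by 1.11 on the log2 scale (SE 0.30, adjusted p = 0.0409), passing without WT replicate 1 and reaching 0.0564 to 0.148 when any other library was left out. The log2 fold changes of the cytosolic partners lay above 0. Txn1, the cytosolic thioredoxin, was at 203, 314 and 232 CPM in WT and 430, 351 and 406 in sST2-KO. All 3 sST2-KO libraries were above all 3 WT libraries (log2 fold change 0.66, SE 0.24, adjusted p = 0.0886). Txnrd1, the cytosolic reductase, was at 91.5, 111 and 84.2 CPM in WT and 115, 148 and 163 in sST2-KO, again without overlap (log2 fold change 0.57, SE 0.21, adjusted p = 0.0955). Txnip, the arrestin-like protein that binds and inhibits thioredoxin, gave -0.40 (adjusted p = 0.476).

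Glutaredoxins use glutathione to reverse thiol modification of proteins, and the mitochondrial Glrx5 serves in iron-sulfur cluster assembly. Glrx, the cytosolic enzyme (GRCm39 chromosome 13, 75987974 to 76002178), rose from 27.6, 47.3 and 39.6 CPM in WT to 73.8, 77.3 and 125 in sST2-KO. The third sST2-KO library was the highest, and the lowest sST2-KO library was above the highest WT library (log2 fold change 1.27, SE 0.29, adjusted p = 0.0260). That p was between 0.0532 and 0.0999 without WT replicate 1, WT replicate 2, WT replicate 3 or sST2-KO replicate 3. Glrx5 (GRCm39 chromosome 12, 104998939 to 105009165) fell from 97.4, 154 and 174 CPM in WT to 48.7, 67.5 and 48.9 in sST2-KO. The change was -1.37 on the log2 scale (SE 0.27, adjusted p = 0.0183), with 0.0580 and 0.0765 without WT replicate 2 and WT replicate 3. Glrx2, the other mitochondrial glutaredoxin, had a log2 fold change of -0.42 (SE 0.24, adjusted p = 0.246).

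In glutathione supply, the recycling enzyme rose and the last enzyme of synthesis fell. Gsr, glutathione reductase of cytosol and mitochondria (GRCm39 chromosome 8, 34142551 to 34188192), was at 37.0, 37.3 and 30.6 CPM in WT and at 107, 81.8 and 164 in sST2-KO. The WT libraries lay close together and all sST2-KO libraries lay more than 2-fold above them, a rise of 3.36-fold (log2 fold change 1.75, SE 0.28, adjusted p = 0.0141, and 0.0653 without WT replicate 3). Gss, glutathione synthetase (GRCm39 chromosome 2, 155405096 to 155455505, minus strand), was at 36.7, 51.8 and 46.8 CPM in WT and 25.7, 25.3 and 13.6 in sST2-KO. It fell by 1.07 on the log2 scale (SE 0.28, adjusted p = 0.0375), with 0.0565 to 0.126 without WT replicate 2, WT replicate 3, sST2-KO replicate 2 or sST2-KO replicate 3. The 2 subunits of glutamate-cysteine ligase, the first and rate-limiting step, did not pass, with log2 fold changes of -0.07 for the catalytic Gclc (adjusted p = 0.837) and 0.28 for the modifier Gclm (adjusted p = 0.345). Slc7a11, which imports cystine in exchange for glutamate, was near the lower end of detection, with 3, 12 and 6 counts in WT and 38, 7 and 373 in sST2-KO. A single library, sST2-KO replicate 3, carried most of the counts, and the groups overlapped. The fitted log2 fold change was 4.21 (SE 1.40, adjusted p = 0.0714), and it was 1.31 without sST2-KO replicate 3. Without sST2-KO replicate 2, the lowest library of its group, the adjusted p was 0.0393.

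None of the 3 genes of the NRF2 axis passed in edgeR, with 1 at an unadjusted p under 0.05 and 1 passing by DESeq2, Nqo1 in both cases. Nfe2l2, which encodes NRF2, gave a log2 fold change of 0.51 (SE 0.24, adjusted p = 0.169), and Keap1, the adaptor that marks NRF2 for degradation, gave 0.12 (SE 0.18, adjusted p = 0.665). Nqo1, the quinone reductase often read as a NRF2 target, gave 1.42 (SE 0.44, adjusted p = 0.0609), and 0.0348 without sST2-KO replicate 2. NRF2 binds antioxidant response elements, which may lie near a gene's start or far from it, and the members that hold one in the window from 250 bases before to 50 after the RefSeq start (GRCm38.p6) are shown with 10 bases on each side and the match in capitals; they show which of the genes above and below carry the letters NRF2 reads. The letters searched were TGACNNNGC on both strands. RefSeq windows were at hand for 30 of the 34 genes, all except Gclc, Gsr, Prdx6 and Sod3, and 7 of the 30 (23.3%) held a match, against 14.0% of all genes with a window. The matches, written along the gene's own strand, are:
Nfe2l2 (chr2:75704885-75704913, minus strand): tcagcccaccTGACTCCGCcatgccccgg
Srxn1 (chr2:152105542-152105570, plus strand): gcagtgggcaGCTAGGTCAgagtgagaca
Gclm (chr3:122245413-122245441, plus strand): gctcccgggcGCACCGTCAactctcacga
Prdx1 (chr4:116685456-116685484, plus strand): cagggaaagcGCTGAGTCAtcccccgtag
Mt2 (chr8:94172529-94172557, plus strand): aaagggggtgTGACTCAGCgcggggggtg
Txnrd1 (chr10:82859104-82859132, plus strand): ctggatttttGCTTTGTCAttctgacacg
Sod1 (chr16:90220696-90220724, plus strand): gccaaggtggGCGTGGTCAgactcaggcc

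Of these 7 genes, Sod1 and Srxn1 fell and the other 5 did not pass, with log2 fold changes from -0.03 for Prdx1 to 0.74 for Mt2. Of the 2 genes that rose, Gsr has no window here and Glrx holds no match. A match to these letters is a description of the sequence and not a shown binding site, and no match says only that the letters are not in this window.

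The metallothioneins, cysteine-rich proteins that bind zinc and copper and scavenge radicals, did not move evenly in the 3 sST2-KO libraries. Mt1 was at 1130, 1296 and 1029 CPM in WT and at 2232, 893 and 935 in sST2-KO. The first sST2-KO library was the highest of all 6 and the other two were the lowest (log2 fold change 0.23, SE 0.40, adjusted p = 0.711). Mt2 was at 602, 720 and 605 CPM in WT and 1598, 605 and 1023 in sST2-KO. Here the sST2-KO libraries of replicates 1 and 3 were above the WT range and that of replicate 2 was within it (log2 fold change 0.74, SE 0.37, adjusted p = 0.188). Neither gene passed by edgeR or DESeq2 or had an unadjusted p under 0.05. Both were highest in sST2-KO replicate 1, and the 2 genes lie next to each other on chromosome 8. The 250 bases before each start are shown in full since these neighbours had the same library on top, with metal response elements, the sites of the zinc sensor MTF1, in capitals. The letters searched were TGCACNC and TGCGCNC on both strands, found in the windows of 9 of the 30 genes (30%) and in 28.2% of all genes:
Mt1 (chr8:94178839-94179088, plus strand): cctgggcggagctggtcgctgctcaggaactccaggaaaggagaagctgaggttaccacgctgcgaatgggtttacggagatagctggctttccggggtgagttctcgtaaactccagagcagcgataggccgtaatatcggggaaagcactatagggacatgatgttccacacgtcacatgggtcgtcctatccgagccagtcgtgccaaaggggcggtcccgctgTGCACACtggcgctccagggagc
Mt2 (chr8:94172368-94172617, plus strand): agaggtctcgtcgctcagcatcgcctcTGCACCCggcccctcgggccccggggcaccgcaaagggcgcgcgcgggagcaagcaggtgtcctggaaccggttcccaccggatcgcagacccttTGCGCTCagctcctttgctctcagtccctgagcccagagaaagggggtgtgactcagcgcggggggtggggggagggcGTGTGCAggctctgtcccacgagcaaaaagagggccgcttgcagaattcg

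The Mt1 stretch holds 1 match and the Mt2 stretch 3, and in the whole window, which runs to 50 bases after the start, Mt1 has 3 and Mt2 has 4. The antioxidant response element of Mt2 shown above lies between the second and the third match of the Mt2 stretch. In Gclm the match to the antioxidant response element overlaps a match to the metal response element.

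**Figure D3:**
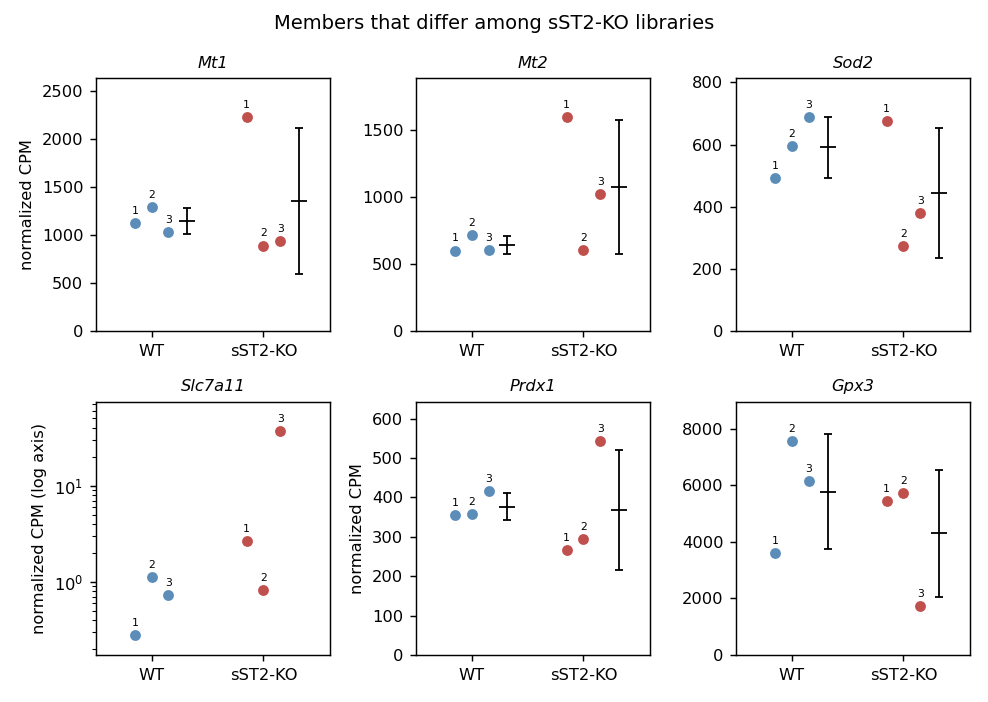
Normalized CPM of 6 genes whose sST2-KO libraries differed among themselves (y axes from 0, except a log axis for Slc7a11), with replicate numbers above the points and mean ± SD (n = 3) as bars where the axis is linear. Mt1, Mt2 and Sod2 are highest in sST2-KO replicate 1, Slc7a11 and Prdx1 in replicate 3, and Gpx3 is lowest in replicate 3.

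Mitochondrial and cytosolic forms were then compared within each library, so that the scaling of a library cancels. Of the 6 mitochondrial genes, 3 fell in edgeR (4 by DESeq2), none rose by either tool or at an unadjusted p under 0.05, and all 6 had a negative log2 fold change, with a median of -1.03. Of the 14 cytosolic genes, 4 fell and 1 rose, with a median of 0.10. Across all genes tested, 9.10% passed as lower and 10.5% as higher, and 6975 of 14542 had a negative log2 fold change. The log2 ratio of the mitochondrial to the cytosolic form was lower in every sST2-KO library than in any WT library for 4 of 7 pairs. Among these pairs, Glrx5 over Glrx and Glrx2 over Glrx share the denominator Glrx, which rose, and Glrx2 itself did not pass. Since Glrx5 serves in iron-sulfur cluster assembly, its ratio to Glrx does not compare 2 forms with the same task. How often ratios of other genes separate the groups in this way was not counted. For Glrx5 over Glrx the ratio was 3.52, 3.25 and 4.39 in WT and 0.660, 0.874 and 0.391 in sST2-KO. The balance of these 2 transcripts thus went from above 1 in all WT libraries to below 1 in all sST2-KO libraries, a difference of -2.60 on the log2 scale. For Txn2 over Txn1 the ratio was 1.05, 1.03 and 1.71 in WT and 0.260, 0.403 and 0.240 in sST2-KO, a log2 difference of -2.07. Txnrd2 over Txnrd1 was at 0.495, 0.652 and 0.981 in WT and 0.319, 0.238 and 0.128 in sST2-KO, a difference of -1.67. Glrx2 over Glrx was at 1.02, 0.461 and 0.907 in WT and 0.344, 0.243 and 0.158 in sST2-KO, also a difference of -1.67. Each of these 4 pairs had p = 0.1 in a two-sided exact permutation test, the smallest value that 3 libraries against 3 allow, and an adjusted p of 0.175 over the 7 pairs. This test cannot go below 0.1 with these numbers of libraries.

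The other 3 pairs overlapped between groups. Sod2 over Sod1 was at 1.25, 1.08 and 0.980 in WT and at 2.41, 1.10 and 2.37 in sST2-KO. It lay in the opposite direction to the thioredoxin and glutaredoxin pairs, with a log2 difference of 0.75 (exact permutation p = 0.2, adjusted p = 0.233). Prdx3 over Prdx1 was at 0.664, 0.756 and 0.767 in WT and 0.733, 0.5003 and 0.161 in sST2-KO, a log2 difference of -0.90 (exact permutation p = 0.2, adjusted p = 0.233) that was -0.26 without sST2-KO replicate 3. Prdx3 over Prdx2 was at 1.23, 1.08 and 1.04 in WT and 1.51, 0.967 and 0.596 in sST2-KO, a log2 difference of -0.22 (exact permutation p = 0.7) that turned to 0.12 without sST2-KO replicate 3.

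The 6 mitochondrial genes were also set beside the tricarboxylic acid (TCA) cycle, a comparison added after the values were seen and given without a test. Of 17 genes of TCA cycle enzymes, which work in the mitochondrial matrix, 16 fell and 1 did not pass, with a median log2 fold change of -1.91 and a range from -2.62 to -0.35. Across all genes tested, 9.10% passed as lower and the median log2 fold change was 0.03. A gene near that median would also rise against these 17 genes, and how many genes did so was not counted. The log2 ratio of each antioxidant gene to the mean log2 level of these 17 genes was higher in all sST2-KO libraries than in all WT libraries for all 6. The differences were 1.56 for Glrx2, 1.47 for Sod2, 0.97 for Prdx3, 0.86 for Txnrd2, 0.63 for Glrx5 and 0.59 for Txn2. Leaving out any 1 library gave differences between 0.40 and 2.00.

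**Figure D4:**
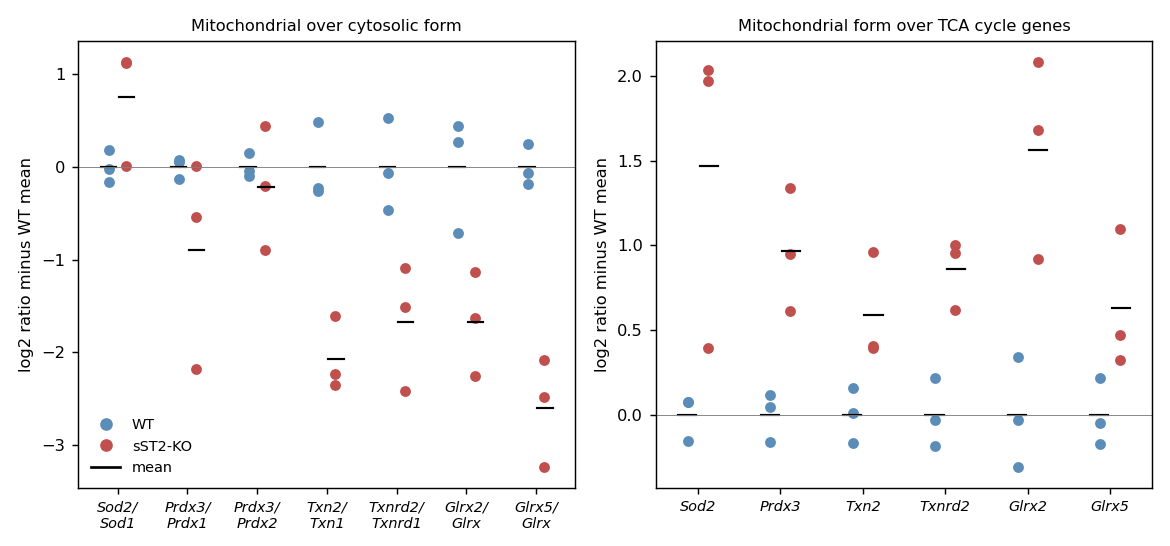
Left, log2 ratio of the mitochondrial to the cytosolic form for 7 pairs (y axis, each pair set to a WT mean of 0), and right, the 6 mitochondrial genes over the mean of 17 TCA cycle genes on the same kind of scale. Points are libraries (3 WT, 3 sST2-KO) and lines are means; the sST2-KO points lie below all WT points in 4 pairs on the left and above them in all 6 columns on the right.

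Around these genes lie other parts of redox metabolism, for which 105 genes were listed from general knowledge. Of them 97 were tested, and 10 (10.3%) were higher and 16 (16.5%) lower in sST2-KO, against 10.5% and 9.10% of all genes tested. All 7 lists are given with their counts. Among sources of oxidants, 7 of 12 genes (58.3%) rose and none fell in edgeR, with a median log2 fold change of 1.86. The 3 largest rises were those of Nos2, the inducible nitric oxide synthase (log2 fold change 3.70, adjusted p = 0.0150), Mpo, the peroxidase of neutrophil granules (2.56, adjusted p = 0.0297), and Rac2, the small GTPase of the phagocyte oxidase (2.51, adjusted p = 0.0120). Nos2 was at 7.84, 6.22 and 7.03 CPM in WT and 41.1, 48.3 and 186 in sST2-KO. Cybb, Ncf4 and Cyba, subunits of the same phagocyte oxidase, were also among the genes that rose, and the marker sums of macrophages and neutrophils given above were higher in sST2-KO than in WT as well, with sST2-KO replicate 3 on top in both and in Nos2. Mpo, with 6, 2 and 10 counts in WT, was instead lowest in replicate 3 within sST2-KO, at 5.44, 3.09 and 2.76 CPM. What macrophages and neutrophils contributed was not tested. Without WT replicate 3 the adjusted p was 0.0670 for Nos2 and 0.0594 for Rac2, and that of Mpo was 0.0531 to 0.0784 without any library except sST2-KO replicate 3.

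The list drawn up for NADPH supply, in which not every enzyme forms NADPH itself, leaned the other way. Of its 17 genes, 7 (41.2%) were lower and 1 (5.88%) was higher, with a median of -0.59. Tkt, the transketolase of the pentose phosphate pathway, fell by 2.82 on the log2 scale (adjusted p = 0.0148, and 0.0563 without WT replicate 3), from 592, 801 and 1703 CPM in WT to 149, 187 and 104 in sST2-KO. Pgls of the same pathway (-1.62) and the mitochondrial malic enzyme Me3 (-1.39) fell too, and Me2, another mitochondrial malic enzyme, rose by 1.24. G6pdx and Pgd, the dehydrogenases of the pentose phosphate pathway, did not pass. Their log2 fold changes were -0.35 (adjusted p = 0.208) and -0.04 (adjusted p = 0.928). Me3 passed in 1 of 6 fits without a library and Pgls and Me2 in 4, the rest having adjusted p between 0.0557 and 0.157. Glutathione S-transferases, which attach glutathione to electrophiles, had 5 of 19 genes (26.3%) lower and none higher in edgeR, with a median of -0.83. Gsta4, which clears the lipid peroxidation product 4-hydroxynonenal, fell by 2.41 (adjusted p = 0.0177) from 27.2, 36.2 and 52.3 CPM to 8.29, 10.6 and 2.96. Gstm7 (-2.05) and the mitochondrial and peroxisomal Gstk1 (-1.14) fell with it. Without WT replicate 2, the library with hepatocyte RNA, 0 of the 19 passed as lower in edgeR. In that fit 6 had an unadjusted p under 0.05. Without WT replicate 3, 0 passed as well. Over all genes, 876 of 14846 passed without WT replicate 2 and 58 of 15085 without WT replicate 3. In each of the 5 transferases that passed with every library, WT replicate 3 was the highest WT library. Some transferases that did not pass peaked in WT replicate 2, such as Gsta3 with 3.73, 47.9 and 3.58 CPM in WT and Gstm1 with 88.0, 284 and 157, both picked after their values were seen. The part of hepatocyte RNA in this list was not tested. Gsta4 and Gstm7 did not pass without WT replicate 2 or WT replicate 3 (0.0502 to 0.0864), nor did Gstk1 without these or sST2-KO replicate 1 or sST2-KO replicate 3 (0.0643 to 0.125).

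Of 4 methionine sulfoxide reductases 2 fell, Msrb2 of mitochondria (-1.82) and Msra (-1.004), and the median was -0.42. Leaving out 1 library took both past the threshold in some fits, 2 of 6 for Msrb2 and 5 of 6 for Msra, with adjusted p of 0.0503 to 0.142. Other NRF2 targets moved in both directions, with 1 of 17 higher, the exporter Abcc1 (1.02), and 2 lower, the cytosolic malic enzyme Me1 (-1.65) and the carbonyl reductase Cbr1 (-1.40), and a median of 0.18. Abcc1, Me1 and Cbr1 passed in 1, 2 and 3 of 6 fits without a library, with 0.0579 to 0.142 in the rest. Among 12 regulators of NRF2 and of the metal response, Bach1, a repressor at antioxidant response elements, rose by 1.23 on the log2 scale in edgeR (adjusted p = 0.0292, and 0.0591 to 0.109 without WT replicate 2, WT replicate 3, sST2-KO replicate 2 or sST2-KO replicate 3). None of 16 genes for selenoproteins and their synthesis passed in edgeR, against 5 at an unadjusted p under 0.05 and 2 by DESeq2, and the median was -0.08. In the directions with 0 calls in edgeR among oxidant sources, glutathione S-transferases, methionine sulfoxide reductases and regulators, 0 genes also passed by DESeq2 or had an unadjusted p under 0.05.

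**Figure D5:**
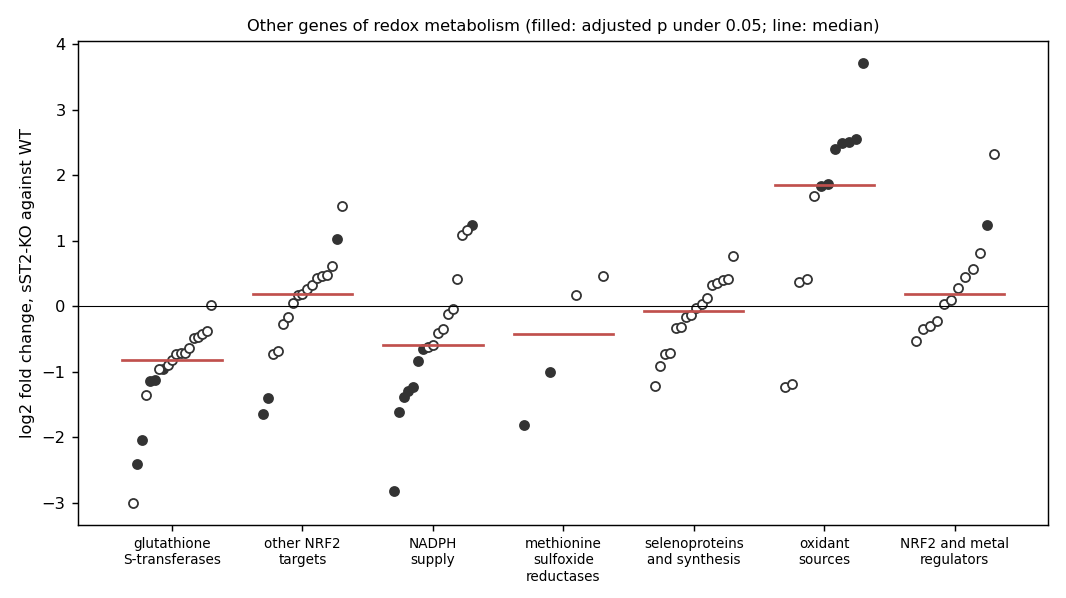
Log2 fold change (y axis), sST2-KO against WT with 3 libraries each, of the 97 tested genes in 7 lists of redox metabolism. Each point is a gene, filled where the adjusted p is under 0.05, and the line is the median of the list; the highest median, 1.86, is that of oxidant sources and the lowest, -0.83, that of glutathione S-transferases.

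In the annotation of GRCm39, 10 of the 12 genes that passed overlap another annotated gene on the opposite strand, Glrx and Glrx5 being the exceptions. Such an overlap is not particular to them. Of the members that did not pass, all but Sod3, Prdx3, Nqo1 and Mt1 have one too. Whole gene spans were compared, introns included. Among the partners are Scaf4 for Sod1, Cdc20b for Gpx8, Junb and Rnaseh2a for Prdx2, and Acss2 and Myh7b for Gss. The library kit does not mark strand, so reads from the shared stretches cannot be told apart. Of these partners, Junb, a stress-responsive transcription factor, rose by 1.96 on the log2 scale (adjusted p = 0.0148) while Prdx2 fell, and Acss2, which makes acetyl-CoA from acetate, fell by 1.85 (adjusted p = 0.0202) with Gss.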

How the data were processed

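BAT of 3 WT and 3 sST2-KO mice was measured by poly-A RNA-seq with 150 bp paired-end reads. The authors checked reads with FastQC 0.12.1, aligned them with HISAT2 2.2.1 to mm39 and counted them on genes with htseq-count, whose version and strand setting are not given in the sources used here. The deposited values are raw counts per gene symbol. Groups and replicate numbers came from the sample labels, and the labels do not name separate litters or batches. Of 35976 rows, 11377 had no count and 27 had a symbol turned into a date; the last were kept in library sizes and are not named.

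Counts were analysed in R 4.3.3 with edgeR 4.0.16: filterByExpr (14542 genes kept), TMM scaling (factors of 0.825 to 0.996 for WT and 1.03 to 1.14 for sST2-KO) and the quasi-likelihood test without a covariate. The study's methods name DESeq2, which was the alternative here (1.42.0). A gene passed at a Benjamini-Hochberg adjusted p under 0.05; a fold change above 2 was counted as well. The common biological coefficient of variation was 0.325, and a standard error is the log2 fold change divided by the square root of F. On simulated counts with the real means and depths (14313 genes tested), edgeR recovered 87.4% of 191 changed genes with 13 false calls. DESeq2 recovered 94.8% of them with 61 false calls. The planted changes were at least 2 in absolute log2 value, a size that Cat alone reached among the members that passed. The shares recovered therefore do not speak for smaller changes. Mitochondrial-genome genes held 6.80% to 16.6% of counts. Between libraries of a group the counts differed by 40.1 to 114 times the sampling variance, and no library repeated another.

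Ratios of 7 mitochondrial and cytosolic pairs were taken within each library as the log2 ratio of raw counts, each plus 0.5. They were tested by a two-sided exact permutation test (smallest p 0.1). All 34 genes are accounted for; genes that passed and genes of pairs are given in every library, and of each companion list at most 3 a direction with the largest change are named, other names having been picked after their values were seen. Some genes are not reported here by name. The members, the companion lists and the marker lists were chosen with earlier results of these data known. Of the companion symbols 10 were matched under an older name. Promoter windows are from RefSeq on GRCm38.p6 and gene positions from GENCODE vM39 on GRCm39. Alternatives were DESeq2, RLE factors, scaling by total counts, the test without a filter or with 10 counts or more in every library, robust estimation, glmTreat against 1.5-fold, a replicate block, another pseudocount (2) for ratios and each library left out.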

Additional observations from a re-analysis of the deposited data

How the results depend on the processing

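The direction of all 12 genes that passed held under all alternatives run, and all 12 also passed with RLE factors, robust estimation, a minimum of 10 counts in every library and DESeq2. Against 2 higher and 10 lower genes, DESeq2 gave 5 higher, total counts 5 higher and 6 lower, glmTreat 1 higher and 2 lower, and leaving out 1 library 0 to 4 higher and 0 to 10 lower. In the companion lists, against 10 higher and 16 lower, total counts gave 10 lower, and leaving out 1 library gave 0 to 9 higher and 0 to 14 lower. The log2 fold change of Il1rl1 was 2.02 to 2.92 with 1 library left out, and its adjusted p was above 0.05 in 4 of the 6 fits. Same-numbered deviations from the group mean correlated at -0.06, 0.21 and -0.31. The highest correlations with another number were 0.34, 0.21 and 0.34. With 3 libraries in each group these values cannot decide whether the replicate numbers pair the samples. With a replicate block, 0 members passed as higher and 0 as lower in edgeR (16 at an unadjusted p under 0.05), as did 0 companion genes in either direction (35 at an unadjusted p). Of all 14542 genes tested, 0 passed with the block and 4623 had an unadjusted p under 0.05. The block leaves 2 residual degrees of freedom. The paired test of the ratios, which keeps their values, had a smallest p of 0.25. Values that turned in sign all belong to genes or pairs that did not pass. With total counts these were Prdx1 at 0.25, Prdx6 at 0.029 and Gclc at 0.19. With 1 library left out, Prdx1 ranged from -0.43 to 0.15, Gpx7 from -0.088 to 0.55, Prdx4 from -0.13 to 0.50, Gclc from -0.19 to 0.053, Keap1 from -0.031 to 0.21, Mt1 from -0.33 to 0.44 and the log2 ratio of Prdx3 over Prdx2 from -0.55 to 0.12. The cause of these shifts was not tested. With 3 libraries in each group and the spread within WT and within sST2-KO described above, the smallest change that passed among the 34 genes was that of Srxn1. Slc7a11 had 3 to 12 counts in 4 of the 6 libraries.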
